A study of Homo sapiens with 6 samples.

Results

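A20, the product of TNFAIP3, acts with partner proteins as a brake on NF-kB signalling. The group read here holds these and other genes of the pathway, and not every member is a brake. Of the 10 genes of this group, 9 had at least 1 probe set annotated to them alone, and together they had 24 of the 54613 probe sets left after the array's controls were set aside. The members are TNFAIP3, its binding partners TNIP1, TNIP2, TNIP3 and TAX1BP1, the deubiquitinases CYLD and OTULIN, the ubiquitin ligase BIRC2 and the TNF-induced gene TNFAIP2. BIRC3, the tenth gene, was not analysed here. The genes were chosen by function, with earlier results of these data known, and every probe set annotated to a member alone was taken.

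The cells were of IGROV1, an established human ovarian carcinoma line, sorted after staining with the DNA dye Hoechst 33342 and given no other treatment. Side population (SP) cells stay dimly stained because membrane pumps export the dye, and cells outside that gate are non-SP. There were 3 SP and 3 non-SP samples, each amplified from a very small amount of RNA and hybridised to 1 array, and all come from this 1 line. The samples are called biological replicates, but separate cultures are not stated, so the spread that the p-values rest on may be partly technical.

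NF-kB is a family of transcription factors held in the cytoplasm by IkB proteins. When TNF binds its receptor, the ligases BIRC2 and BIRC3 (cIAP1 and cIAP2) and the linear ubiquitin assembly complex build ubiquitin chains on RIPK1 and neighbouring proteins, and these chains bring in the kinases that release NF-kB. A20 edits and shields such chains, CYLD and OTULIN cut them, and TNFAIP3 is itself an NF-kB target, which closes a negative feedback loop.

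NF-kB is known to act on TNFAIP3 through motifs just upstream of the gene. The 250 bases before the annotated start were searched on both strands for the NF-kB decamer consensus in the RefSeq promoter table (GRCh38.p14). At least 1 match stood in 5.21% of all 35116 windows of that length, and 6 of the 17 windows of the 10 genes, BIRC3 included, held one. These windows belong to TNFAIP3, TNIP1, TNIP3, BIRC3 and CYLD. TNIP2, BIRC2, OTULIN, TNFAIP2 and TAX1BP1 had 0 windows with a match. The 3 member windows printed below are those that also hold GGGACTTTCC, the letters of the TNFAIP3 match farthest from its start. That string was picked out after the matches were seen and is present in 0.179% of windows, so the printed windows do not mark the group. Capitals mark consensus matches on either strand, and each line runs 5′ to 3′ along the gene's own strand.
TNFAIP3, chr6:137867009-137867258, plus strand: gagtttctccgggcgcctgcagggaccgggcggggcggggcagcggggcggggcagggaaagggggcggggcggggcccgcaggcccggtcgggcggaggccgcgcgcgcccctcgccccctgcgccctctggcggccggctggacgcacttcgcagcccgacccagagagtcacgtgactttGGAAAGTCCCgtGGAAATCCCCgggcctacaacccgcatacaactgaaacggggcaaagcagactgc
TNIP1, 1 of 2 annotated starts, chr5:151081035-151081284, minus strand: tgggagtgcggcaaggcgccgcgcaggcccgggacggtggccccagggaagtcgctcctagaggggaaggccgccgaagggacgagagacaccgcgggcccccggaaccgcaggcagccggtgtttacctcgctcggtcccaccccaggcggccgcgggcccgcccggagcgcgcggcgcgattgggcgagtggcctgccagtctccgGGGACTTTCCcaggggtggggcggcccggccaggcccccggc
CYLD, 1 of 3 annotated starts, chr16:50741836-50742085, plus strand: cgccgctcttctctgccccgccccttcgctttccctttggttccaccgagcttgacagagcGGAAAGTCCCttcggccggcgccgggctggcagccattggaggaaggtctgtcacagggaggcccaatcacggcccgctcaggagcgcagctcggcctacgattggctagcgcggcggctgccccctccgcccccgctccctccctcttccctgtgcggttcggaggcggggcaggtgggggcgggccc
The TNFAIP3 window holds 2 matches, from -67 to -58 and from -55 to -46, counted back from the start, both read on the opposite strand. The TNIP1 match lies from -42 to -33 and the CYLD match from -189 to -180. A match describes letters only; binding was not measured in these samples.

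Of the 19775 genes with a single symbol, each read at its brightest probe set (by the mean of the 6 arrays), 1 passed an adjusted p of 0.05 (limma, Benjamini-Hochberg), which is 0.00506% of genes, and it was not a member. Of the 9 measured members, 0 passed, with adjusted p between 0.411 and 0.998. At an unadjusted p under 0.05, 4 of 9 members were on the higher side in SP cells and 0 on the lower side, where 3.07% of all genes were on the higher side. The SP and non-SP ranges were apart, with SP on top, for 3 of 9 members, against 4.78% of all genes. The difference was above 0 for 7 of 9 members and 45.2% of all genes, and its median was 0.21 over the members and -0.02 over all genes. Of the members, 8 had a mean above the median gene level of 6.27; among the 9887 genes above that level, 49.1% had a difference above 0, 4.15% had an unadjusted p under 0.05 on the higher side and in 5.74% the ranges were apart with SP on top. The members were put together with results of these data known, so these shares describe the group and do not test it.

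**Figure D1:**
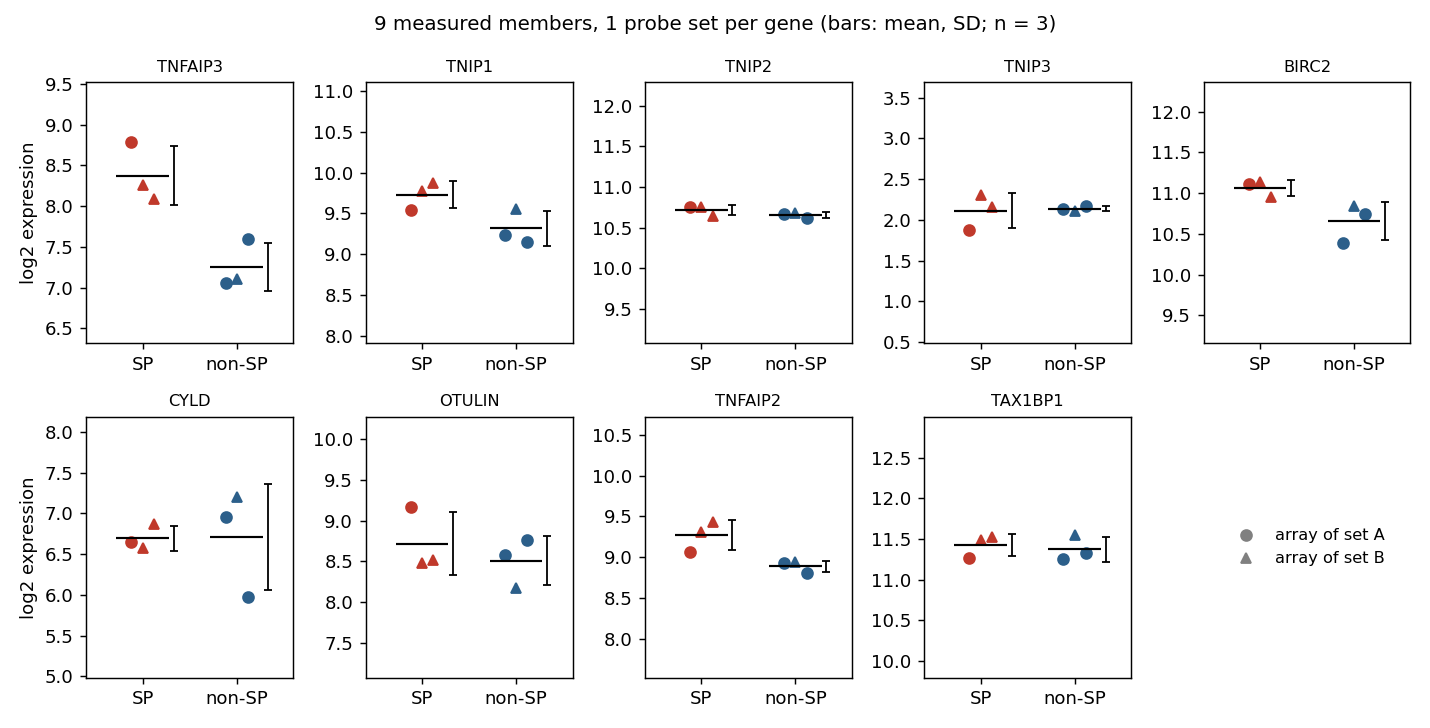
Log2 expression (vertical axis) of each of the 9 measured members on the 3 SP and the 3 non-SP arrays, with the mean as a line and the SD as a bar; circles and triangles mark array sets A and B, and every panel spans the same number of log2 units. TNFAIP3, BIRC2 and TNFAIP2 are the members whose SP points all lie above their non-SP points, and TNIP2 and TAX1BP1 lie at nearly the same level in both groups.

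Apart from the sort, the arrays fell into 2 sets. The first principal component of all genes took 45.8% of the variance and put SP replicate 1 with non-SP replicates 1 and 3 (set A), and SP replicates 2 and 3 with non-SP replicate 2 (set B). The 3′ minus 5′ signal of the ACTB control probe sets, which reads how evenly a transcript was copied along its length, was 2.02 to 2.29 log2 units in set A and 2.46 to 2.55 in set B, and 2.08 to 2.48 in SP against 2.02 to 2.55 in non-SP samples. The same measure for GAPDH did not separate the sets, at 0.042 to 0.15 in set A and 0.035 to 0.36 in set B. Values within each set are therefore given for the members that differed most. Each of them rests on a single SP array in set A and a single non-SP array in set B. The carcinoma markers EPCAM, KRT18 and PAX8 were bright on all 6 arrays (PAX8 10.14 to 10.67), and of the 5 measured leukocyte markers PTPRC and CD3E lay between 2.24 and 3.53, near the negative controls. The other 3 lay above those controls on all 6 arrays, CD14 at 5.22 to 5.56, ITGAM at 4.20 to 4.53 and LYZ at 3.93 to 4.28. Of the 6 epithelial markers, 2 had an unadjusted p under 0.05, KRT8 with a difference of -0.71 and CDH1 with 0.79 (adjusted p = 0.611 and 0.709); their part in the results below was not tested. Summed on the linear scale, these 5 leukocyte markers reached 86.0 to 96.9 in SP and 85.1 to 97.1 in non-SP samples.

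Read at 1 probe set per gene, TNFAIP3 showed the greatest difference of the 9 members. Its log2 level was 8.78, 8.26 and 8.08 in SP cells, against 7.06, 7.10 and 7.59 in non-SP cells. The groups did not overlap, and the highest non-SP value was 0.49 below the lowest SP value. The means were 8.38 ± 0.36 in SP and 7.25 ± 0.30 in non-SP cells (SD, n = 3 each), a log2 difference of 1.13 (SE 0.23), or 2.18-fold with a 95% interval of 1.48 to 3.22. TNFAIP3 stood 108th of 19775 genes by unadjusted p (0.00229), and its adjusted p was 0.411. Within the array sets the difference was 1.46 in set A and 1.07 in set B. As in any bulk sample, more cells with the transcript and more transcript per cell cannot be told apart.

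The second TNFAIP3 probe set, 202643_s_at, read 8.73, 7.59 and 6.83 in SP cells, against 7.96, 6.31 and 7.94 in non-SP cells. These groups overlapped, and the difference was 0.31 (SE 0.62, adjusted p = 0.955 in a limma fit of all 54613 probe sets, where the brighter probe set 202644_s_at had 0.350). Its values ran with the array sets: set B averaged 1.30 log2 units below set A. Within set A the single SP array was 0.78 above the non-SP mean. Within set B the SP mean was 0.90 above the single non-SP array. The sets were themselves read from these data. The mean of both probe sets differed by 0.72 (SE 0.40, adjusted p = 0.757).

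The 3 ABIN proteins, TNIP1, TNIP2 and TNIP3, bind A20 and ubiquitin chains and help A20 reach its targets. TNIP1 read 9.55, 9.77 and 9.87 in SP cells, against 9.24, 9.56 and 9.15 in non-SP cells. SP replicate 1 lay just under non-SP replicate 2, so the groups touched. The difference was 0.42 (SE 0.16, adjusted p = 0.701), with a 95% interval of 0.03 to 0.80. TNIP1 was higher in set B than in set A by 0.42, about as much as SP differed from non-SP, and within the sets SP was above non-SP by 0.35 in A and 0.26 in B. The dimmer TNIP1 probe set, 243423_at, spread from 3.66 to 5.81 over the SP arrays and lay between 4.83 and 4.92 on the non-SP arrays, with a difference of -0.11 (SE 0.50). With the mean of both probe sets TNIP1 differed by 0.16 (SE 0.23).

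TNIP2 was nearly constant. Its brightest probe set read 10.75, 10.76 and 10.65 in SP cells, against 10.66, 10.69 and 10.62 in non-SP cells. The difference of 0.06 had a 95% interval of -0.19 to 0.32. Its other probe sets differed by 0.08 and 0.01, and the ranges of the groups overlapped for all 3. TNIP3, which is induced by inflammatory signals in myeloid cells, read 1.88 to 2.30 in SP and 2.10 to 2.17 in non-SP cells. The 3 negative controls averaged 2.82 to 2.91 on SP and 2.85 to 2.96 on non-SP arrays, so TNIP3 stayed under them on each of the 6 arrays. No TNIP3 signal was measured above background, and its difference of -0.02 carries no information on direction.

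TAX1BP1, an adaptor that recruits A20 and also serves in selective autophagy, read 11.27, 11.48 and 11.53 in SP cells, against 11.25, 11.55 and 11.32 in non-SP cells. The groups overlapped, and the difference was 0.05 with a 95% interval of -0.28 to 0.38. All 3 of its probe sets were higher in set B than in set A, by 0.24, 0.47 and 0.73. Within the sets the brightest probe set differed by -0.02 in A and -0.04 in B.

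BIRC2 encodes cIAP1, a ligase that adds chains to RIPK1 after TNF binding and also keeps the alternative NF-kB pathway off by having its kinase degraded. The 1 probe set annotated to it read 11.11, 11.13 and 10.95 in SP cells, against 10.39, 10.84 and 10.74 in non-SP cells. The groups did not overlap, with a gap of 0.11. The difference was 0.41 (SE 0.15), or 1.33-fold with a 95% interval of 1.03 to 1.71, and the adjusted p was 0.696. It was 0.54 within set A and 0.20 within set B.

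TNFAIP2 was named for its induction by TNF; its protein takes part in membrane protrusions and is not a ubiquitin editor. The brighter probe set read 9.07, 9.31 and 9.43 in SP cells, against 8.92, 8.93 and 8.81 in non-SP cells. The groups were apart, with a gap of 0.13. The difference was 0.38 (SE 0.13, adjusted p = 0.669), and within sets it was 0.20 in A and 0.44 in B. The dimmer probe set, 202509_s_at, lay between 5.09 and 5.47 in SP and between 5.03 and 5.44 in non-SP cells, with a difference of -0.01 (SE 0.18). With the mean of both, TNFAIP2 differed by 0.19 (SE 0.12).

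OTULIN cuts only linear ubiquitin chains. Its brightest probe set read 9.17, 8.48 and 8.51 in SP cells, against 8.58, 8.18 and 8.77 in non-SP cells. The groups overlapped, and 1 array, SP replicate 1, stood above the rest. The difference was 0.21 (SE 0.24, 95% interval -0.37 to 0.79), and -0.01 without SP replicate 1. The other probe sets differed by 0.30 (SE 0.29) and 0.11 (SE 0.22), so all 3 were on the same side of 0.

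CYLD, a tumour suppressor that removes ubiquitin chains from NF-kB regulators, had the most probe sets, 7, and they did not give 1 answer. The brightest, 213295_at, read 6.64, 6.57 and 6.87 in SP cells, against 6.96, 7.20 and 5.97 in non-SP cells, and differed by -0.01 (SE 0.32). The SP values sat inside the non-SP range. Probe set 39582_at gave the same picture, at 6.20, 6.10 and 6.08 in SP cells, against 6.37, 6.50 and 5.70 in non-SP cells, and a difference of -0.06 (SE 0.22).

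Of the 7 probe sets, 5 had a difference above 0, and in 2 of them the groups did not overlap. Probe set 60084_at read 6.63, 7.48 and 7.20 in SP cells, against 5.68, 4.75 and 6.40 in non-SP cells, and differed by 1.49 (SE 0.43, adjusted p = 0.519 over all probe sets). Probe set 221903_s_at read 7.06, 6.85 and 6.89 in SP cells, against 5.57, 6.48 and 6.13 in non-SP cells, and differed by 0.87 (SE 0.24, adjusted p = 0.479). In both, every SP array was above every non-SP array, and the non-SP arrays spread more widely than the SP arrays. Probe set 222142_at differed by 1.45 (SE 0.55), with its lowest SP value, 6.67, just under its highest non-SP value, 6.70. Probe sets 221905_at and 214272_at differed by 0.59 (SE 0.34) and 0.28 (SE 0.24).

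The array sets bear on CYLD unevenly. For 60084_at the difference was 0.59 within set A and 2.58 within set B, where the single non-SP array was the lowest of all 6, and for 222142_at it was 0.45 and 2.84. For 221903_s_at it was 1.21 in A and 0.39 in B. With the mean of its 7 probe sets in place of the brightest, CYLD differed by 0.66 (SE 0.15, adjusted p = 0.357). All 7 lay above the negative control mean on all 6 arrays; which stretch of the transcript each one reads was not used here.

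**Figure D2:**
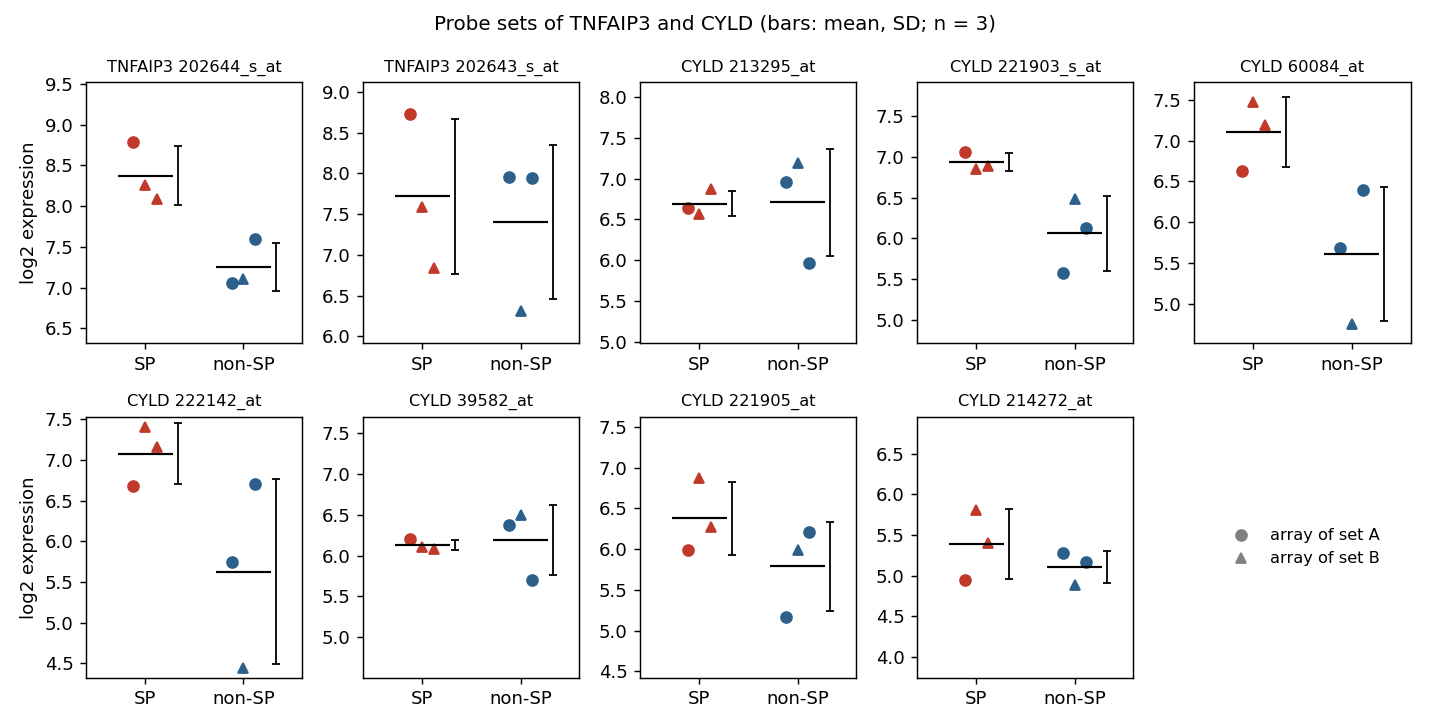
Log2 expression (vertical axis) on each SP and non-SP array for the 2 probe sets of TNFAIP3 and the 7 of CYLD, with the mean as a line and the SD as a bar; circles and triangles mark array sets A and B, and every panel spans the same number of log2 units. TNFAIP3 202644_s_at, CYLD 221903_s_at and CYLD 60084_at separate SP from non-SP, while CYLD 213295_at and 39582_at do not.

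Over all 24 member probe sets, 18 had a difference above 0, where 46.8% of all probe sets did, and 0 passed an adjusted p of 0.05, a threshold that 0.00183% of probe sets passed. At an unadjusted p under 0.05, 7 were on the higher side, 3 of them of CYLD, where 3.79% of all probe sets were. In 5 the ranges were apart with SP on top, which was so for 5.59% of all probe sets, and 2 of those 5 belong to CYLD. Probe sets of 1 gene share their target and are not independent of each other. No member probe set had its SP range wholly under its non-SP range, and the lowest difference was -0.11.

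**Figure D3:**
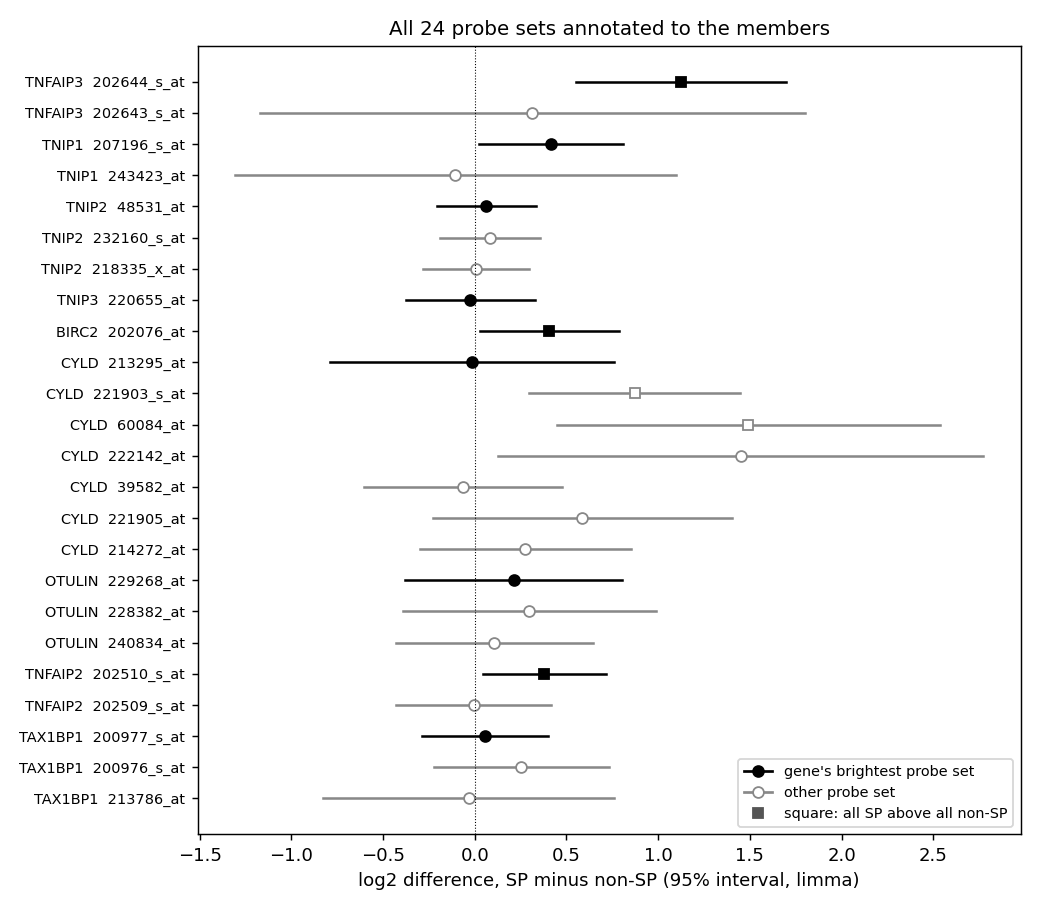
Log2 difference, SP minus non-SP, with its 95% interval from limma (horizontal axis) for all 24 probe sets of the 9 members; filled symbols are the brightest probe set of each gene and squares mark probe sets whose SP values all lie above the non-SP values. The intervals lie wholly above 0 for 7 probe sets, of TNFAIP3, TNIP1, BIRC2, CYLD and TNFAIP2, and below 0 for none of the 24.

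Genes whose level varied over the 6 arrays most like that of TNFAIP3 were found among the 9886 other genes with a mean above the median gene level, by the root mean square difference of mean-centred log2 values. The nearest was CXCL2, a neutrophil chemokine and NF-kB target, at 0.07 log2 units. CXCL2 read 10.61, 10.13 and 9.95 in SP cells, against 9.04, 9.01 and 9.34 in non-SP cells, so its arrays stood in nearly the same order as those of TNFAIP3. Next came ARRDC3, an arrestin-like adaptor (0.15), the core histone gene H2BC9 (0.16), TMOD1, which caps actin filaments (0.17), NAB1, a corepressor of EGR factors (0.17), and NFKBIZ, an atypical IkB protein (0.19). The differences of these 6 genes lay between 1.02 and 1.24, with adjusted p between 0.152 and 0.401. The ranking shares the arrays with the comparison above and is by distance between centred log2 values. A gene can come out near only if its SP minus non-SP difference is close to that of TNFAIP3 in size and sign. The ranking therefore picks genes with a similar difference by construction. It also rests on 1 probe set a gene: the other 2 CXCL2 probe sets differed by 0.67 (SE 1.08) and 0.39 (SE 0.46), the second NFKBIZ probe set by 1.06 (SE 0.30) and the second TMOD1 probe set by 0.88 (SE 0.19). The other 3 NAB1 probe sets differed by 0.51 (SE 0.26), 0.91 (SE 0.18) and -0.29 (SE 0.33), the last being the only probe set of the 6 genes with a difference below 0.

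**Figure D4:**
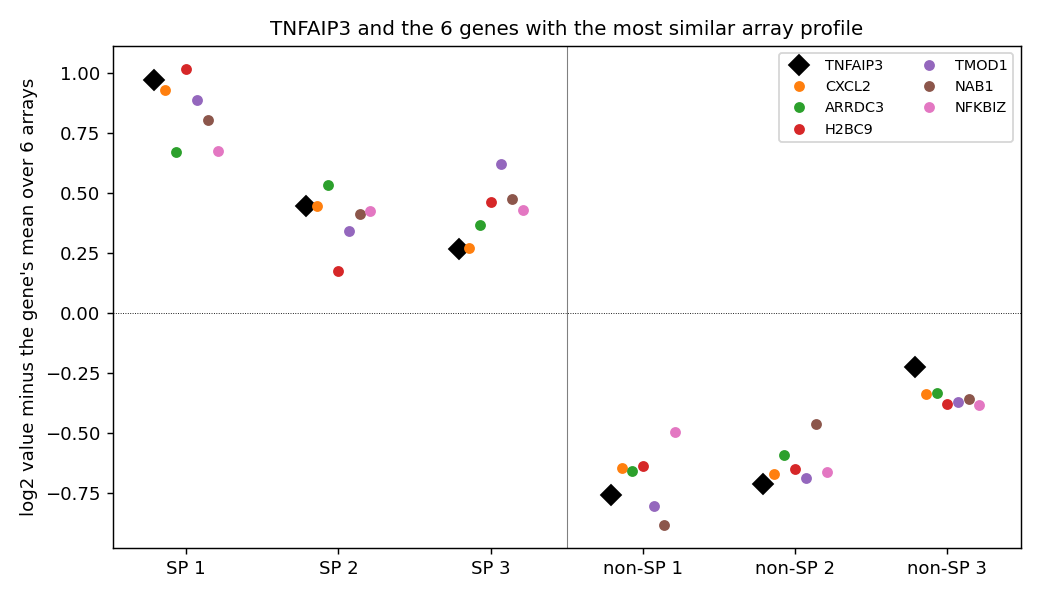
Log2 value minus the gene's mean over the 6 arrays (vertical axis) for TNFAIP3 (diamonds) and the 6 genes nearest to it, on each SP and non-SP array (horizontal axis). All 7 genes lie above their mean on the 3 SP arrays and below it on the 3 non-SP arrays, and CXCL2 follows TNFAIP3 most closely.

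The rest of the pathway was read from lists put together with results of these data known, and 0 of their genes passed over all genes. Among 19 measured partners of A20 and other ubiquitin editors, 10 had a difference above 0, against 45.2% of all genes. At an unadjusted p under 0.05 (limma) there was 1, on the higher side, against 3.07% of all genes on that side. The median was 0.12, against -0.02 over all genes. ITCH, a ligase that works in a complex with A20, read 9.73, 9.58 and 9.79 in SP cells, against 9.11, 9.37 and 9.13 in non-SP cells. Its groups did not overlap, and the difference was 0.49 (SE 0.13, adjusted p = 0.528). TBK1, a kinase held in check by A20 and its partners in antiviral signalling, differed by 0.54 (SE 0.26), its groups apart by only 0.0078. ZRANB1, a deubiquitinase related to A20, differed by 0.39 (SE 0.18), also without overlap. OPTN, a ubiquitin-binding adaptor, differed by 0.67 (SE 0.29) with overlapping groups. Of the 19 genes, 3 had all SP values above all non-SP values, against 4.78% of all genes. In 1 gene, RNF11, all SP values lay below all non-SP values, as in 1405 of all 19775 genes. RNF11 differed by -0.14 (SE 0.11).

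The 3 genes of the linear ubiquitin assembly complex, which makes the chains OTULIN cuts, had differences of 0.26 (RNF31), 0.11 (SHARPIN) and 0.04 (RBCK1), all with overlapping groups. Among 21 measured genes of the TNF receptor complex and IKK activation, 11 had a difference above 0, against 45.2% of all genes. The median was 0.01, against -0.02 over all genes. An unadjusted p under 0.05 (limma) was reached by 0 of the 21, against 607 genes higher and 733 lower of all 19775. FADD, the death domain adaptor, differed by 0.35 (SE 0.17), TAB2, which ties ubiquitin chains to the kinase TAK1, by -0.21 (SE 0.12), TAB1, an activator of that kinase, by -0.34 (SE 0.21) and the kinase IKBKB by -0.30 (SE 0.20). Differences of the 21 genes lay between -0.34 and 0.35.

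Downstream, 8 of 10 measured NF-kB subunits and IkB genes and 12 of 14 measured NF-kB target genes had a difference above 0, against 45.2% of all genes, with medians of 0.11 and 0.26. Of the targets, VCAM1, TNFSF10 and BCL2A1 did not exceed the mean of the negative controls on all 6 arrays, so their differences carry no direction, and 9 of the 11 targets that did had a difference above 0. Within both array sets the difference was above 0 for 6 of the 10 and for 6 of the 14, against 4786 of all 19775 genes. These differences rest on 1 SP array in set A and on 1 non-SP array in set B. At an unadjusted p under 0.05 there were 1 of the 10 and 3 of the 14, all on the higher side, against 3.07% of all genes on that side. NFKBIZ differed by 1.02 (SE 0.14, adjusted p = 0.152). NFKBIA, the classical IkB protein and another feedback target of NF-kB, read 10.01, 9.39 and 9.50 in SP cells, against 9.40, 8.44 and 9.53 in non-SP cells. Its groups overlapped, and the difference was 0.51 (SE 0.32). RELA differed by 0.21 (SE 0.12) and NFKB1 by -0.26 (SE 0.18). Of the targets, CXCL2 differed by 1.10 (SE 0.20), CXCL3 by 0.72 (SE 0.24), CCL20, a lymphocyte chemokine, by 0.77 (SE 0.26) and CXCL8 by 1.74 (SE 0.78), with adjusted p between 0.302 and 0.746. CXCL8 read 5.62, 7.91 and 7.74 in SP cells, against 4.63, 6.70 and 4.73 in non-SP cells. The arrays of set B were the 3 highest. Going the other way, ICAM1 differed by -0.30 (SE 0.16), with all SP values below all non-SP values. It was the 1 target of the 14 with its ranges apart in that direction, and 2 had them apart with SP on top. Over all 19775 genes these counts were 1405 and 945.

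**Figure D5:**
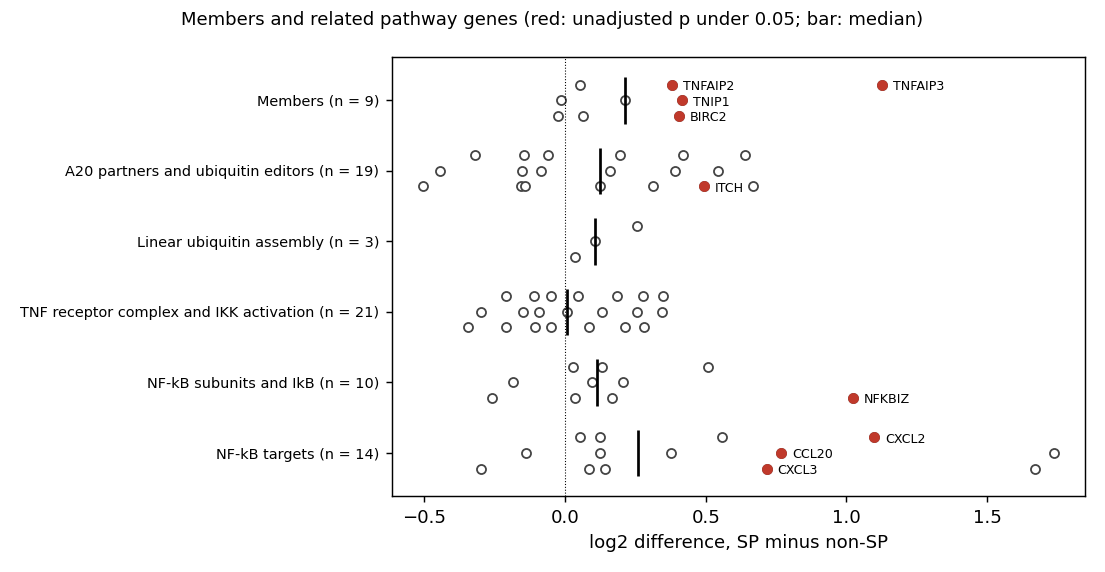
Log2 difference, SP minus non-SP (horizontal axis), of the 9 measured members and of the genes of 5 related lists, 1 point a gene, with the list's median as a bar and genes with an unadjusted p under 0.05 in red. TNFAIP3, NFKBIZ and CXCL2 lie beyond 1.0 with an unadjusted p under 0.05, and the receptor complex list is spread around 0.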

How the data were processed

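Per the labels' protocols, sorted cells were lysed, RNA was purified with a kit for small samples, amplified with a whole-transcriptome kit for picogram amounts and labelled with biotin. The authors deposited log2 values for each probe set, made with R 2.8.1, affy and RMA, per the submitters' processing notes; RMA puts all arrays on 1 distribution, which hides any overall change in RNA content. No further settings were given.

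Probe sets were named from the platform annotation (41091 with 1 symbol, 1801 with several, 11721 unnamed, 62 controls); 41037 were matched through Entrez ID to RefSeq GRCh38.p14, which changed 0 symbols. Each of 19775 genes was read at its probe set with the highest mean. Differences are SP minus non-SP, from a two-sided fit without a block (R 4.3.3, limma 3.58.1, lmFit and eBayes), with Benjamini-Hochberg adjustment over all genes or, for single probe sets, over all 54613. On simulated data (3 simulations of 19775 genes, 200 changed) the fit recovered 61.7% of genes changed by 1 log2 unit and 93.5% changed by 2. There were 29 false calls in all. The simulated noise was drawn independently for each gene and array, at the variance the fit had estimated and without array sets. These shares therefore check the code and do not give the power on the real arrays. The number of arrays limits the precision. The members and lists were chosen with earlier results of these data known. All members and their probe sets and the 6 genes most like TNFAIP3 are named. From each list the first 4 genes by unadjusted p and any gene whose group ranges were apart are named. Genes shown as markers come from a fixed list. Deviations from the group means of same-numbered SP and non-SP arrays correlated at 0.45, 0.38 and -0.21 over genes. For arrays with different numbers the correlations ran from -0.57 to 0.40. They were above 0 for arrays of the same array set and below 0 otherwise. This check therefore cannot tell whether same-numbered arrays belong together, and a replicate block was run as an alternative. Alternatives were leaving out each array, blocks for array set and replicate number, array weights, averaging or swapping a gene's probe sets, dropping dim genes, median centring, cyclic loess and a robust prior with a trend; a covariate for the 3′ minus 5′ signal of ACTB was added after seeing the data. Python 3.11.15, pandas 2.3.3 and matplotlib 3.10.9 were used for sequences and figures.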

Additional observations from a re-analysis of the deposited data

How the results depend on the processing

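Over 15 alternatives other than single probe sets, 0 of 9 members passed an adjusted p of 0.05 (limma); TNIP3 has 14 alternatives because it is under the median level. TNFAIP3 stayed above 0 in all 15, from 0.72 with the mean of its probe sets (adjusted p = 0.757) to 1.30 without non-SP replicate 3, with adjusted p from 0.12 with the array set as a block to 0.801. TNIP1 (0.16 to 0.54), TNIP2 (0.04 to 0.10), BIRC2 (0.27 to 0.50) and TNFAIP2 (0.19 to 0.48) also kept their sign in all 15. With 1 array left out the ranges were 0.92 to 1.30 for TNFAIP3, 0.33 to 0.54 for TNIP1, 0.27 to 0.50 for BIRC2 and 0.30 to 0.48 for TNFAIP2.

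Over the same alternatives, single probe sets aside, the sign turned for TNIP3, CYLD, OTULIN and TAX1BP1. With array weights it turned for TNIP3 (0.036), CYLD (0.21) and OTULIN (-0.0092). With 1 array left out CYLD ran from -0.38 to 0.23, OTULIN from -0.012 to 0.34, TAX1BP1 from -0.0077 to 0.14 and TNIP3 from -0.12 to 0.093. The array set as a block turned TAX1BP1 to -0.029. The mean of its probe sets turned CYLD to 0.66, as did 5 of its single probe sets: 221903_s_at (0.87), 60084_at (1.49), 222142_at (1.45), 221905_at (0.59) and 214272_at (0.28). Single probe sets also turned TNIP1 (243423_at, -0.11, against 0.42 in the reported fit), TNFAIP2 (202509_s_at, -0.0059, against 0.38) and TAX1BP1 (213786_at, -0.033, against 0.05). The causes were not tested.

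The count of genes past the threshold, 1 in the reported fit, was 3 with the replicate block, 0 with the mean of probe sets, 0 among genes above the median level, 12 with array weights, 5 with the array set as a block, 3 with the ACTB covariate and 1 to 2 with 1 array left out, the 2 being without SP replicate 1. The replicate block changed no call of a member. Blocking on array sets, themselves read from these values, can make p-values too small. Cyclic loess and median centring moved the median of all genes to -0.01, against -0.02. Signal over background limits TNIP3, which no array measured above the negative controls.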
